A study of Mus musculus with 27 samples.

Results

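The dual-specificity MAPK phosphatases (MKPs) were followed in murine bone marrow-derived macrophages (BMDM) stimulated, or stimulated and re-stimulated, through a Toll-like receptor (TLR). The 9 genes were taken by symbol: Dusp1, Dusp2, Dusp4, Dusp5, Dusp6, Dusp8, Dusp10, Dusp14 and Dusp16. They are 9 of 21828 genes named on the array and are read by 12 of its 55681 probes, since Dusp8 has 3 probes and Dusp16 has 2. TLR ligands activate the MAP kinases ERK, JNK and p38 through a chain of upstream kinases, and the active kinases carry paired phosphates on a threonine and a tyrosine. An MKP removes both phosphates and so switches the kinase off, and many MKP genes are themselves induced by the kinases they act on. Dusp1, Dusp2, Dusp4 and Dusp5 encode inducible nuclear phosphatases, Dusp6 encodes a cytoplasmic phosphatase of ERK, Dusp8, Dusp10 and Dusp16 encode phosphatases that act on JNK and p38, and Dusp14 encodes a small atypical phosphatase that lacks the kinase-binding domain of the others.

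BMDM were grown from female C57BL/6 mice aged 6 to 8 weeks by culture for 7 days with L929-conditioned medium, and no group carried a genetic change. Naive BMDM received no ligand. Acutely stimulated BMDM received 1 ligand for 4 h, and re-stimulated BMDM received it for 24 h, were washed, and received the same ligand for a further 4 h. The ligands were LPS (a TLR4 ligand, 100 ng/ml), CpG DNA (TLR9), Pam3CSK4 (TLR1/2, 100 ng/ml) and Poly(I:C) (TLR3, 10 µg/ml). The labels give CpG at 100 µM and the methods at 1 µM. Each of the 9 groups had 3 cultures, hybridised to 1-colour Agilent arrays. Values were deposited for 25 of the 27 arrays. The third LPS re-stimulated array and the second Pam3CSK4 acute array had none, so these groups are 2 arrays each. The sources describe the replicates both as single mice and as pools, so p-values measure the spread between these cultures, whatever its source. The comparisons with naive BMDM share the 3 naive arrays, and the acute arrays of a ligand serve in 2 comparisons, so the comparisons are not independent of each other.

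All values below are deposited log2 intensities, on which a difference of 1 is a doubling. They follow 1 probe across conditions and do not rank one gene above another. A change was called where its adjusted p was below 0.05 and the fold at least 1.5, in a fit without the replicate number. All 8 macrophage markers checked were well above background on all 25 arrays. The share of probes well above background was 74.9% on naive replicate 3 and 43.1% to 54.99% on the other 24 arrays with values. A set of 3 slides, each holding 1 replicate number, carried every group but acute LPS, whose arrays lay on 3 further slides read on other days. Slide and ligand therefore cannot be told apart in any comparison that contains acute LPS. The mean of 5 neutrophil genes (Ly6g, Elane, Mpo, Ngp, Camp) also split the arrays, at 9.12 to 11.9 on replicates 1 and 2 of the groups other than acute LPS, and at 5.49 to 6.74 on replicate 3 of those groups and on all acute LPS arrays. Elane and Camp were above background on 25 of 25 arrays, Ngp on 17, and Ly6g and Mpo on 16. Elane stayed between 11.1 and 12.7 on all 25 arrays, so low and high below refer to the mean of the 5 genes. The part of these genes' cells in the MKP values was not tested. In bulk RNA, fewer cells that express a gene and less RNA per cell cannot be told apart.

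**Figure D1:**
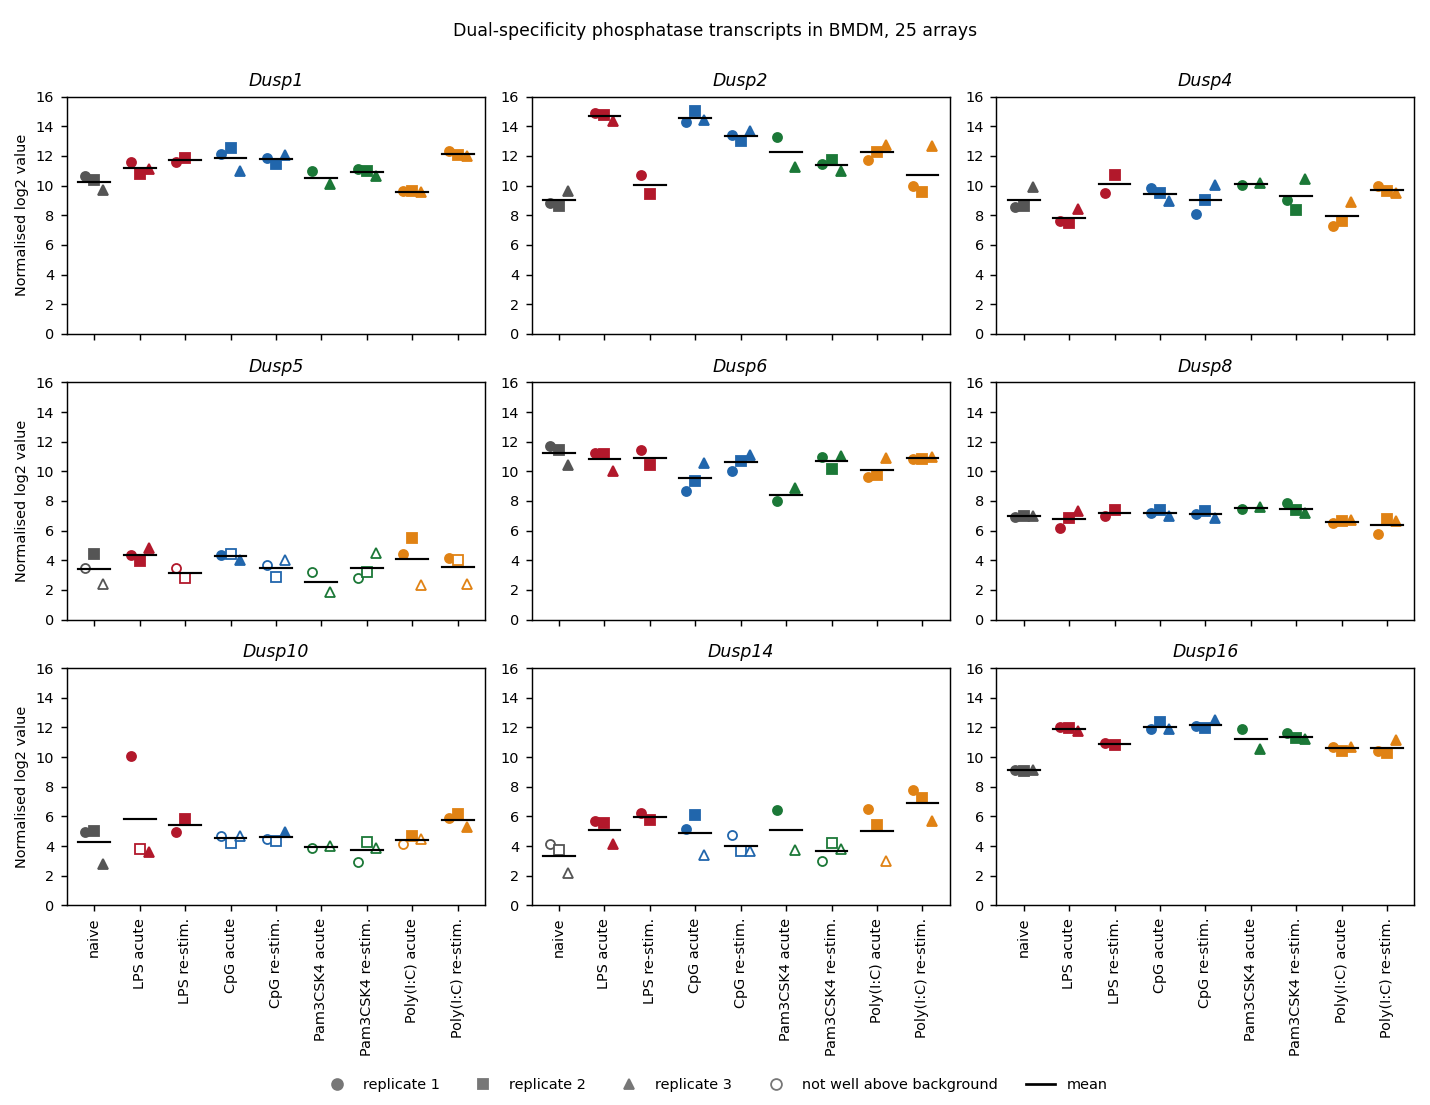
Deposited log2 intensity of the 9 MKP genes (vertical axes) on each array of the 9 groups (horizontal axes). Points are single arrays, shaped by replicate number and open where the probe was not well above background, and bars are group means. Dusp2 and Dusp16 lie above all 3 naive arrays in every acutely stimulated group, and Dusp5, Dusp10 and Dusp14 are open on many arrays.

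Among the MKPs, Dusp2 and Dusp16 were called higher after 4 h of LPS, of CpG or of Poly(I:C). They were the sole MKPs called in these acute comparisons, 2 of the 9 tested for each ligand. With LPS, 26.5% of all tested probes were called, 13.2% as higher. With CpG, 5.72% were called, 3.09% as higher. With Poly(I:C), 6.03% were called, 3.8% as higher. With Pam3CSK4 no MKP of the 7 tested was called. There limma called 0% of all probes, with 3458 of 27841 below an unadjusted p of 0.05 and a smallest adjusted p of 0.288, and 4 of the 7 MKPs had an unadjusted p below 0.05. The median change of the tested MKPs was 0.96 with LPS, 0.85 with CpG, 0.56 with Pam3CSK4 and 0.16 with Poly(I:C), beside medians of all probes from -0.10 to 0.01. The median was the value of Dusp5 with LPS and CpG and of Dusp10 with Poly(I:C). These genes were above background on 9 and 12 of 25 arrays. With Pam3CSK4 it was the value of Dusp8, whose probe targets an EST on the strand opposite the RefSeq gene. A median of so few genes follows a single probe and does not describe a shared rise.

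Between acute and re-stimulated BMDM, MKPs were called in both directions with LPS, as probes at large were. With LPS, 3 of 9 were called lower (Dusp2, Dusp5, Dusp16) and 1 higher (Dusp4), where 34.2% of all probes were called, 17.2% as higher and 17% as lower. These counts of 9 genes are not read as a departure from the shares, and slide and ligand cannot be told apart here. With Poly(I:C), 1 of 9 was called higher (Dusp1), where 4.93% of all probes were called, 2.31% as higher. With CpG none of 8 was called, where 3.56% of all probes were, and with Pam3CSK4 none of 6, where 0% were. In each of these last comparisons, with CpG and with Pam3CSK4, 1 MKP had an unadjusted p below 0.05, as had 5573 of 25737 and 3461 of 25427 of all probes. Set against naive BMDM, LPS re-stimulated cells had 1 MKP of 8 tested called, Dusp16 as higher, beside 5.67% of all probes (3.28% as higher). CpG gave 3 of 7, Dusp1, Dusp2 and Dusp16, all higher, beside 13.2% (6.69% as higher), and 2 with the replicate numbers fitted as blocks. Pam3CSK4 gave 2 of 7, Dusp2 and Dusp16, both higher, beside 5.36% (2.61% as higher), and 0 with the block. Poly(I:C) gave 3 of 8, Dusp1, Dusp14 and Dusp16, all higher, beside 9.03% (4.79% as higher), and 2 with the block. The block also moved the Poly(I:C) counts from 2 to 3 in acute against naive BMDM (Dusp4 called lower) and from 1 to 2 between acute and re-stimulated BMDM (Dusp14 called higher).

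**Figure D2:**
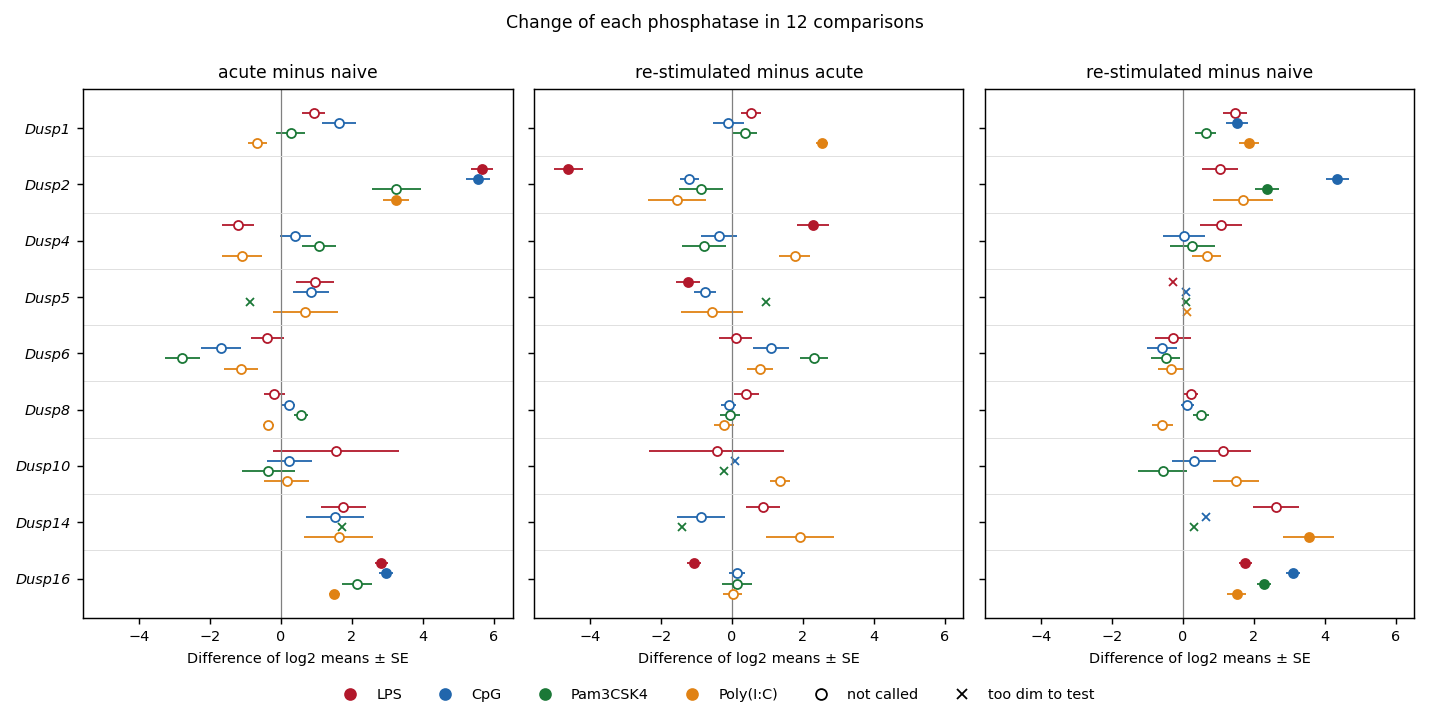
Difference in log2 intensity with its standard error for the 9 MKP genes in the 12 comparisons, 4 ligands each for acute minus naive, re-stimulated minus acute and re-stimulated minus naive BMDM. Filled points were called, open points were not, and crosses mark differences of probes too dim to test. Dusp2 falls between acute and re-stimulated LPS while Dusp16 stays above naive BMDM in re-stimulated cells of all 4 ligands.

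Dusp2 encodes an inducible nuclear phosphatase of immune cells that acts on ERK and p38, and its probe lies at chr2:127163930-127163989 (mm9). Its naive values were 8.80, 8.65 and 9.62. Acute LPS gave 14.91, 14.75 and 14.38, acute CpG 14.26, 15.02 and 14.44, acute Poly(I:C) 11.74, 12.29 and 12.71, and acute Pam3CSK4 13.29 and 11.26. Every acutely stimulated array lay above every naive array. Dusp2 rose 50.4-fold with LPS (log2 difference 5.66, SE 0.31, adjusted p = 0.000378), 46.9-fold with CpG (5.55, SE 0.34, adjusted p = 0.00287) and 9.35-fold with Poly(I:C) (3.23, SE 0.37, adjusted p = 0.0112). The Pam3CSK4 difference of 3.25 (SE 0.69) was not called (adjusted p = 0.288), though it was in 1 fit over all 9 groups (adjusted p = 0.00939). On the shared slides, array by array, the difference from naive BMDM was 4.82 to 6.37 with CpG, 2.94 to 3.64 with Poly(I:C) and 1.64 to 4.49 with Pam3CSK4. On the slide of replicate 3 the mean of the neutrophil genes was low in both groups. There the difference was 4.82 with CpG, 3.09 with Poly(I:C) and 1.64 with Pam3CSK4, the lower of the Pam3CSK4 values. Dusp2 lost its Poly(I:C) call without acute replicate 2 (adjusted p = 0.0679) or naive replicate 1 (0.0517).

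Between acute and re-stimulated cells Dusp2 was called lower with LPS, and no other ligand gave a call. Its re-stimulated values were 10.72 and 9.42 with LPS, 13.41, 13.03 and 13.68 with CpG, 11.43, 11.75 and 11.02 with Pam3CSK4, and 9.94, 9.54 and 12.64 with Poly(I:C). Both LPS re-stimulated arrays lay far below the 3 acute ones, and Dusp2 fell by 4.61 on the log2 scale (SE 0.41, adjusted p = 0.000969), that is 24.4-fold. What remained above naive BMDM with LPS, 1.05, was not called (adjusted p = 0.271). The mean of the neutrophil genes was high on both LPS re-stimulated arrays and low on the 3 acute ones. The part of these genes' cells in this fall was not tested. With CpG the difference of -1.20 (SE 0.27) between re-stimulated and acute arrays was not called (adjusted p = 0.0638), and Dusp2 was still 4.35 above naive BMDM (SE 0.32, adjusted p = 0.00342). With Pam3CSK4 the re-stimulated cells were 2.38 above naive BMDM (SE 0.34, adjusted p = 0.0271), a call lost with the replicate block (adjusted p = 0.0725) and without naive replicate 1 or 2 or re-stimulated replicate 1 or 2 (adjusted p from 0.0879 to 0.118), and with no filter on dim probes (0.0536). With Poly(I:C) replicate 3 stood apart. Its Dusp2 difference between re-stimulated and acute cells was -0.08, and that of the other replicates reached -2.75. Over 3 replicates the change was -1.54 (adjusted p = 0.285), and without re-stimulated replicate 3 it was -2.51 (adjusted p = 0.0161).

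Dusp16, whose product acts chiefly on JNK and p38 and whose brighter probe lies at chr6:134665783-134665842 (mm9), was called in the same acute comparisons as Dusp2. The naive values were 9.13, 9.03 and 9.13. Acute values were 12.05, 11.94 and 11.76 with LPS, 11.89, 12.34 and 11.90 with CpG, 11.91 and 10.56 with Pam3CSK4, and 10.65, 10.44 and 10.68 with Poly(I:C). All of them were above naive BMDM, by more than 1 on the log2 scale. Dusp16 rose by 2.82 with LPS (SE 0.18, adjusted p = 0.000518), by 2.95 with CpG (SE 0.20, adjusted p = 0.00342) and by 1.496 with Poly(I:C) (SE 0.16, adjusted p = 0.00937). The Pam3CSK4 difference of 2.14 (SE 0.43) was not called (adjusted p = 0.288) except in the fit over 9 groups (adjusted p = 0.000603). Dusp16 lost its Poly(I:C) call without naive replicate 2 or acute replicate 1 or 2 (adjusted p from 0.0536 to 0.0600), with median scaling (0.0720) and when both Dusp16 probes were averaged (0.273). Differences on the slide of replicate 3 were 2.78 with CpG, 1.56 with Poly(I:C) and 1.43 with Pam3CSK4, which gave 2.79 on that of replicate 1.

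Re-stimulated cells kept Dusp16 high. The values were 10.92 and 10.79 with LPS, 12.11, 11.95 and 12.52 with CpG, 11.63, 11.26 and 11.25 with Pam3CSK4, and 10.39, 10.27 and 11.16 with Poly(I:C). Against naive BMDM the difference was 1.76 with LPS (adjusted p = 0.0195), 3.10 with CpG (0.00236), 2.28 with Pam3CSK4 (0.0113) and 1.51 with Poly(I:C) (0.0277), each called. Against acutely stimulated cells Dusp16 fell with LPS, by 1.07 (SE 0.20, adjusted p = 0.0101). The differences with CpG (0.15, adjusted p = 0.749), Pam3CSK4 (0.14, 0.925) and Poly(I:C) (0.02, 0.974) were not called. With the replicate block the calls against naive BMDM were lost for Pam3CSK4 (adjusted p = 0.0546) and Poly(I:C) (0.0535). Single arrays also decided calls. The LPS fall was not called without re-stimulated replicate 2 (adjusted p = 0.0676), with all 27 arrays (0.0620) or with median scaling (0.229). Against naive BMDM the LPS and Poly(I:C) calls needed naive replicates 1 and 2 and re-stimulated replicates 1 and 2 (adjusted p from 0.0715 to 0.209 without 1 of them), and the Pam3CSK4 call needed naive replicates 1 and 2 and re-stimulated replicate 1 (0.0587 to 0.0682). Averaging the probes ended the calls of LPS (0.183), Pam3CSK4 (0.0755) and Poly(I:C) (0.193), leaving dim probes in ended those of LPS (0.0558) and Poly(I:C) (0.0600), and using all 27 arrays that of LPS (0.0514). The second Dusp16 probe was dimmer, was not well above background on naive replicates 1 and 2, and its difference from naive BMDM had the same sign as that of the first after each acute stimulus, but it was called in no comparison.

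Dusp2 and Dusp16 were the pair of MKPs whose values ran most closely together, with Pearson r = 0.863 over the 25 arrays and 0.858 over the 22 without acute LPS. The next pair, Dusp1 and Dusp16, reached 0.4997, and the lowest was Dusp8 and Dusp10 at -0.588. Dusp8 was read here by its brightest probe, which targets an EST on the strand opposite the RefSeq gene. These arrays share slides and naive cultures, so r describes the arrays and carries no test. With re-stimulated LPS, Dusp2 was 1.05 above naive BMDM without a call, and Dusp16 was 1.76 above it with one.

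**Figure D3:**
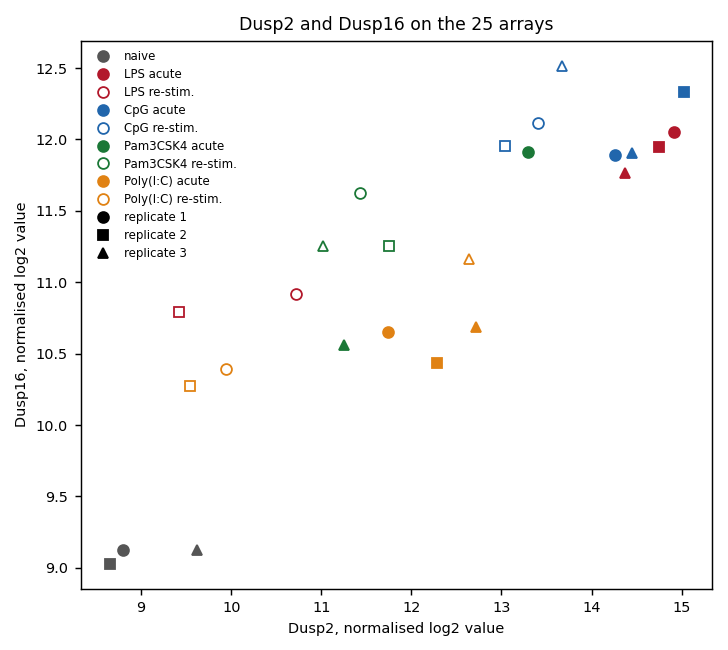
Dusp16 against Dusp2, both as log2 intensity, with 1 point for each of the 25 arrays, coloured by ligand, filled for naive and acute and open for re-stimulated BMDM, and shaped by replicate number. The naive arrays lie at the lower left, acute LPS and CpG at the upper right, and the LPS re-stimulated arrays at low Dusp2 and intermediate Dusp16.

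The promoters of the MKPs are shown because MKPs of this kind are induced by transcription and the members differed in response. RefSeq (GRCm38.p6) holds 250 bases before to 50 after the start of 8 of the 9 genes, all but Dusp4. The sequences of the 3 genes called in most comparisons, and of Dusp8, which carries the same element as Dusp1, run as follows from 5′ to 3′ on the strand of the gene, with every match to a searched motif in capitals. Dusp1 is at chr17:26508423-26508722 on the minus strand, Dusp2 at chr2:127335909-127336208 on the plus strand, Dusp16 at chr6:134792579-134792878 on the minus strand and Dusp8 at chr7:142095235-142095534 on the minus strand.
Dusp1: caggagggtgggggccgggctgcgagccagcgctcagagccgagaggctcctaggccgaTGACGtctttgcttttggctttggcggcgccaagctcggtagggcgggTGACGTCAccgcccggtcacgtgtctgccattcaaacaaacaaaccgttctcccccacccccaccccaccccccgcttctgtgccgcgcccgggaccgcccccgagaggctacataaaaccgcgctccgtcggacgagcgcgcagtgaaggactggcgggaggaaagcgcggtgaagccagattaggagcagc
Dusp2: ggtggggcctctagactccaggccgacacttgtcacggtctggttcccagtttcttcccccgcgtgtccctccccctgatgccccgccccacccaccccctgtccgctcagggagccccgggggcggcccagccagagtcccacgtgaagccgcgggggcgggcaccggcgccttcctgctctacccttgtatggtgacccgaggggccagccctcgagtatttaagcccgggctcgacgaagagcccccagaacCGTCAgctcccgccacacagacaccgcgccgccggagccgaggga
Dusp16: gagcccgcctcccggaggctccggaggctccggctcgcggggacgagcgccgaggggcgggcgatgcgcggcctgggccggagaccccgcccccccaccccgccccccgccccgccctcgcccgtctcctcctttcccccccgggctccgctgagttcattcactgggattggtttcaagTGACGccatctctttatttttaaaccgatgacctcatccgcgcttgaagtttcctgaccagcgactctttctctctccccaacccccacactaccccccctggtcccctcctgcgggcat
Dusp8: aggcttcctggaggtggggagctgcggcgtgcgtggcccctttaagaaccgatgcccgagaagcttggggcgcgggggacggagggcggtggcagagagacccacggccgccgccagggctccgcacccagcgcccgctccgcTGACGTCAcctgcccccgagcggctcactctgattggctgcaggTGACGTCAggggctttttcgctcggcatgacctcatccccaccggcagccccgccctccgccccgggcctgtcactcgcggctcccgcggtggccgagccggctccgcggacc
Motifs were searched on both strands. The cAMP response element (CRE), TGACGTCA, was found in Dusp1, from -143 to -136 relative to the start, and at 2 places in Dusp8, and in 1.79% of all 32851 promoters of the same length. Its shorter core TGACG, which overlaps each CRE, was found in Dusp1, Dusp2, Dusp5, Dusp8 and Dusp16, 5 of 8, and in 20.8% of all promoters. An NF-kB motif, GGG, any 3 bases, then TTCC, was found in Dusp5 alone of the 8, from -90 to -81, and in 5.56% of all promoters. None of the 8 windows held the AP-1 motif TGANTCA (7.81% of all), the ETS motif CCGGAAGT (3.89%), the interferon-stimulated response element, GAAA, any 2 bases, then GAAA (3.44%), or TATAAA (13.6%). The 8 windows held 57.3% to 73.3% G and C, beside a median of 52.7% over all promoters. The part of this base content in the shares of matches was not tested. A match describes these letters and no binding was measured.

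**Figure D4:**
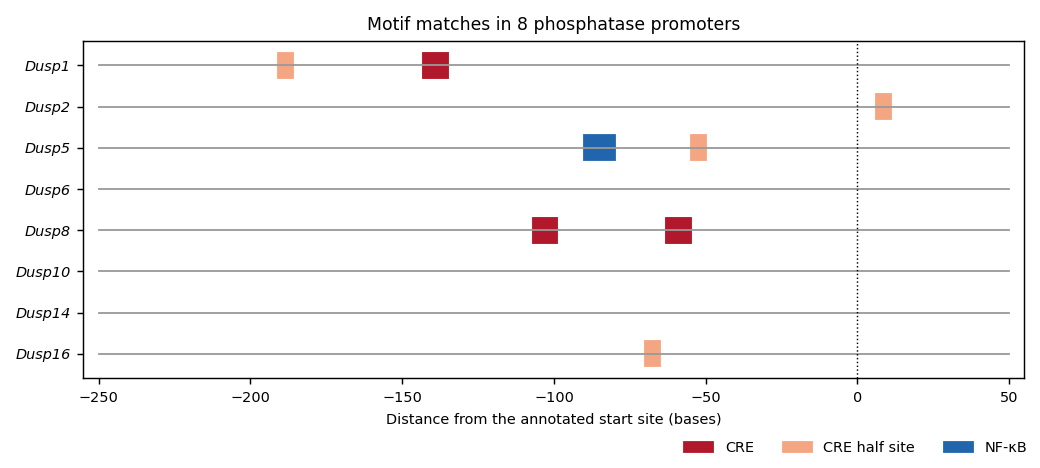
Positions of motif matches in the promoters of 8 MKP genes, as distance in bases from the transcription start (horizontal axis) with 1 line per gene and colours for the CRE, its shorter core outside a CRE, and NF-kB. Dusp1 and Dusp8 carry the full CRE, and Dusp6, Dusp10 and Dusp14 carry no match.

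Dusp1, the phosphatase of p38 and JNK best known for restraining cytokine production, was called in no acute comparison. Naive values were 10.66, 10.40 and 9.72. Acute LPS gave 11.60, 10.81 and 11.13, acute CpG 12.15, 12.57 and 10.95, acute Pam3CSK4 10.96 and 10.12, and acute Poly(I:C) 9.62, 9.60 and 9.58. At 4 h the LPS and CpG arrays lay above all naive arrays and the Poly(I:C) arrays below them, but none of these differences was called (LPS 0.92, adjusted p = 0.0857, CpG 1.63, 0.110, Poly(I:C) -0.66, 0.225). In 1 fit over 9 groups the LPS (adjusted p = 0.0421) and CpG (0.00293) differences were called. Without naive replicate 3 the Poly(I:C) difference was -0.93 (adjusted p = 0.0306).

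Dusp1 rose on re-stimulation with Poly(I:C). The re-stimulated values were 12.31, 12.08 and 11.99 with Poly(I:C), 11.83, 11.46 and 12.08 with CpG, 11.61 and 11.84 with LPS, and 11.09, 10.99 and 10.62 with Pam3CSK4. Dusp1 rose 5.77-fold between acute and re-stimulated Poly(I:C) (log2 difference 2.53, SE 0.17, adjusted p = 0.0117), and by 2.41 to 2.69 on each of the 3 slides. It also rose above naive BMDM with Poly(I:C) (1.87, SE 0.28, adjusted p = 0.0191) and CpG (1.53, SE 0.31, adjusted p = 0.0289). With LPS the difference from naive BMDM was 1.46 (adjusted p = 0.0736), called without naive replicate 3 (1.19, adjusted p = 0.0154). Between acute and re-stimulated cells it was 0.54 with LPS (adjusted p = 0.181), -0.10 with CpG (0.920) and 0.36 with Pam3CSK4 (0.685). The Poly(I:C) rise from acute cells kept its size, 2.44 to 2.55, but not its call without acute replicate 1 or 2 or re-stimulated replicate 1 or 2 (adjusted p from 0.0558 to 0.0739). The call against naive BMDM was lost for Poly(I:C) without naive replicate 2 or re-stimulated replicate 1 or 2 (0.0678 to 0.0830). It was lost for CpG with the replicate block (0.0679) and without any 1 array other than naive replicate 3 (0.0538 to 0.0961), and with no filter (0.0605).

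Dusp4, a nuclear phosphatase of ERK and JNK, ran against Dusp2 with LPS. Naive values were 8.53, 8.65 and 9.90, acute LPS gave 7.58, 7.46 and 8.41, and re-stimulated LPS gave 9.47 and 10.72. The acute values all lay below the naive ones (-1.21, adjusted p = 0.0942), and Dusp4 rose 4.86-fold from acute to re-stimulated LPS (log2 difference 2.28, SE 0.46, adjusted p = 0.0123). Without re-stimulated replicate 2 the rise was 1.66 (adjusted p = 0.0618), and with all 27 arrays it was not called (0.185). The mean of the neutrophil genes again moved with this comparison, and the part of these genes' cells was not tested. Poly(I:C) gave values of the same order. Acute arrays were at 7.29, 7.60 and 8.89 and re-stimulated ones at 9.96, 9.61 and 9.51. The acute difference of -1.10 was not called (adjusted p = 0.320) but ran from -1.23 to -1.01 on the 3 slides and was called with the replicate block (0.0424). The re-stimulated difference of 1.77 (SE 0.43) missed the threshold (adjusted p = 0.0669), and without acute replicate 3 it was 2.24 (0.0178). Neither CpG, at 9.83, 9.48 and 8.98 acute and 8.07, 9.05 and 10.04 re-stimulated, nor Pam3CSK4, at 10.02 and 10.16 acute and 9.05, 8.36 and 10.48 re-stimulated, gave a called difference. Without naive replicate 3 acute Pam3CSK4 was 1.499 above naive BMDM (adjusted p = 0.0491).

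Dusp5, the nuclear phosphatase of ERK, was near background, above it on 9 of 25 arrays. It was above background on the 3 acute LPS arrays (4.37, 3.92 and 4.81) and on neither re-stimulated LPS array (3.46 and 2.78). Between the means it fell 2.37-fold (adjusted p = 0.0339), and the re-stimulated mean rests on values not well above background. The call held in 5 of 11 settings and was lost without acute replicate 1 (adjusted p = 0.0679), acute replicate 3 (0.0509) or re-stimulated replicate 2 (0.178). No other comparison called Dusp5, whose values over all 25 arrays ran from 1.85 to 5.49.

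Dusp6, the cytoplasmic phosphatase of ERK, had its highest mean in naive BMDM, at 11.72, 11.46 and 10.44. Acute Pam3CSK4 gave 8.00 and 8.85, acute CpG 8.69, 9.35 and 10.53, acute Poly(I:C) 9.60, 9.75 and 10.89, and acute LPS 11.22, 11.19 and 10.05. The Pam3CSK4 arrays were below all naive arrays, while replicate 3 of CpG and Poly(I:C) overlapped them. The differences of -2.78 with Pam3CSK4 (SE 0.49, unadjusted p = 0.00246, adjusted p = 0.288), -1.68 with CpG (0.145), -1.13 with Poly(I:C) (0.245) and -0.39 with LPS (0.563) were not called. Fitted over 9 groups, the Pam3CSK4 (adjusted p = 0.00540) and CpG (0.0247) differences were called, and without naive replicate 3 the Pam3CSK4 difference was -3.17 (0.0375). Re-stimulated Pam3CSK4 arrays stood at 10.97, 10.18 and 11.03, 2.18 to 2.97 above the acute array on the same slide (2.30, SE 0.40, adjusted p = 0.167). The 9-group fit called this difference (0.0338). Dusp6 in re-stimulated cells was below naive BMDM by 0.28 to 0.58 with LPS, CpG, Pam3CSK4 and Poly(I:C), with no call.

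Dusp14 was above background on 13 of 25 arrays and highest after Poly(I:C) re-stimulation. Its naive values, 4.15, 3.75 and 2.17, were not well above background. Poly(I:C) gave 6.47, 5.45 and 3.02 acutely and 7.79, 7.23 and 5.69 on re-stimulation. The re-stimulated arrays were all above the naive ones, by 3.48 to 3.64 on each slide. Between the means Dusp14 rose 11.7-fold over naive BMDM (fitted difference 3.54, SE 0.72, adjusted p = 0.0381). The naive mean rests on values not well above background, and over the alternatives the difference ran from 2.80 to 4.15. From acute to re-stimulated cells the difference of 1.92 was called with the replicate block alone (adjusted p = 0.0460, against 0.262 without it). Replicate 3 was the lowest of its group in 6 of 8 groups that held it. LPS gave 5.67, 5.52 and 4.15 acutely (3.37-fold between the means, adjusted p = 0.0870). On re-stimulation it gave 6.20 and 5.76 (6.16-fold between the means, adjusted p = 0.0822). Without naive replicate 3 the latter difference was 2.03 on the log2 scale and was called (adjusted p = 0.00703). The Poly(I:C) call against naive BMDM was lost without naive replicate 1 or 2 or re-stimulated replicate 1 or 2 (adjusted p from 0.0777 to 0.135), with all 27 arrays (0.0542) and with no filter (0.0666).

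Dusp8 and Dusp10, whose products act on JNK and p38, gave no call on the brightest probe. The brightest Dusp8 probe lay between 5.80 and 7.84 on all 25 arrays, but it targets an EST on the plus strand while the RefSeq gene runs on the minus strand. Of the probes to the RefSeq transcript, the brighter gave a difference of -1.03 between re-stimulated and acute CpG (SE 0.28, adjusted p = 0.0930), with no call. The dimmer, singled out after its values were seen, stood at 7.06, 7.05 and 7.18 with acute CpG and at 4.16, 5.49 and 5.12 on re-stimulation, a fall of 2.17 (SE 0.34, adjusted p = 0.0347). With Pam3CSK4 the same step was -1.71 on the brighter RefSeq probe and -2.53 on the dimmer, with no call. No re-stimulated Pam3CSK4 array had the dimmer well above background. With LPS the steps were 0.10 and 0.09, and with Poly(I:C) 0.47 and 0.45. Naive means were 5.07 (brighter) and 5.62 (dimmer). Acute means were 6.64 and 7.10 with CpG, 6.88 and 7.04 with Pam3CSK4, and 5.93 and 5.80 with LPS. Acute Poly(I:C) gave 5.42 on the brighter and a mean below naive BMDM on the dimmer. Dusp10 was above background on 12 of 25 arrays. One acute LPS array, replicate 1, stood at 10.05 and the other two at 3.82 and 3.58, so that the difference between re-stimulated and acute LPS, -0.43 (SE 1.90), turned to 1.69 without it (adjusted p = 0.0188). With Poly(I:C) Dusp10 went from 4.11, 4.67 and 4.49 to 5.92, 6.14 and 5.26 (1.35, SE 0.29, adjusted p = 0.0522), and without re-stimulated replicate 3 the difference was 1.61 (0.0190).

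Whether the ligands differed in the step from acute to re-stimulated BMDM was tested directly, as 6 differences between ligands for each MKP in 1 fit over 9 groups with p adjusted over 30811 probes. The share of probes called was 6.35% for LPS against CpG, 7.20% for LPS against Pam3CSK4, 3.61% for LPS against Poly(I:C), 0.00325% for CpG against Pam3CSK4, 0.0357% for CpG against Poly(I:C) and 0.101% for Pam3CSK4 against Poly(I:C). The LPS step of Dusp2 was lower than that of CpG by 3.40 (SE 0.94, adjusted p = 0.0384) and lower than that of Pam3CSK4 by 3.73 (SE 0.99, adjusted p = 0.0306). Its difference from Poly(I:C), -3.07, was not called (adjusted p = 0.0749). The LPS step of Dusp4 exceeded that of Pam3CSK4 by 3.08 (SE 0.90, adjusted p = 0.0445), and for Dusp1 the LPS step was below the Poly(I:C) step by 1.99 (SE 0.51, adjusted p = 0.0395). The larger difference of Dusp1 between CpG and Poly(I:C), -2.63 (SE 0.48), was not called (adjusted p = 0.0619), lies on shared slides, and was called with the replicate number (adjusted p = 0.0361) or the slide (0.0197) as a block. The steps of Dusp16 were lower with LPS by 1.08 to 1.22, with no call (adjusted p from 0.0843 to 0.153). All 4 called differences contain acute LPS and its own slides.

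Ranked by mean, the conditions formed a different order for each MKP, but neighbours in that order rarely separated. Neighbours were picked by sorting the same means, which keeps their gaps small. The count below therefore does not say whether conditions further apart differed. Of 72 neighbouring pairs over the 9 genes, 1 differed in the fit over 9 groups, namely acute Poly(I:C) (10.59) over naive BMDM (9.09) for Dusp16 (adjusted p = 0.00111), a pair of conditions between which 14% of all probes were called. Over the 32 pairs of conditions that were neighbours for some MKP, this share ran from 0.0227% to 35.95%. For Dusp1 the order ran from re-stimulated Poly(I:C) (12.13) through acute CpG (11.89), re-stimulated CpG (11.79) and re-stimulated LPS (11.72) to naive BMDM (10.26) and acute Poly(I:C) (9.60). For Dusp2 it ran from acute LPS (14.68) and acute CpG (14.58) to naive BMDM (9.02). Dusp4 was highest in re-stimulated LPS (10.10) and acute Pam3CSK4 (10.09) and lowest in acute LPS (7.82), and Dusp6 was highest in naive BMDM (11.21) and lowest in acute Pam3CSK4 (8.42).

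The genes whose values ran most like those of an MKP were found by Pearson r over 25 arrays among 15246 genes above background. Dusp16 was closest to Ptgs2 (r = 0.936), the inducible cyclooxygenase, Edn1 (0.935), which encodes endothelin, and Gpd2 (0.931). Dusp2 was closest to Adamts4 (0.932), a secreted protease, Slc25a25 (0.922) and Gyk (0.914), which encodes glycerol kinase. Dusp14 was closest to Gem (0.884), a small GTPase, and Dusp4 to Mafg (0.893), a small MAF transcription factor. Dusp1 was closest to Prdm4 (0.808), Dusp6 to Cnst (0.818) and Dusp8, by its EST probe on the opposite strand, to Actr1a (0.864). For Dusp10 the closest gene, Rfx3, had r = 0.759, and 0.284 without the acute LPS arrays, among which lies the array at 10.05. The arrays share slides and cultures, and these values are descriptions.

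The MAP kinase pathway around the MKPs was followed through 88 further genes in 7 lists. After acute LPS 13 of 77 tested were called higher and 19 lower, beside 26.5% of all probes called, after CpG 8 and 9 of 78, beside 5.72%, after Poly(I:C) 5 and 11 of 77, beside 6.03%, and after Pam3CSK4 none of 78, beside 0%. The counts of single lists below are to be read against the same shares. Among the MAP3K and RAF kinases, which stand at the top of the chain, 3 of 17 were called higher and 5 lower with LPS, 0 and 4 with CpG, and 0 and 5 with Poly(I:C). Map3k1 changed by -2.98 with LPS, -2.03 with CpG and -1.75 with Poly(I:C), Map3k4 by -2.08, -1.64 and -0.95, and Tab1, a partner of the kinase TAK1, by -2.13, -1.63 and -1.17. Map2k4, a kinase that activates JNK, rose by 1.53, 0.98 and 1.28 with the same ligands. Among 16 substrates and effectors 4, 4 and 2 were called higher and 5, 4 and 3 lower with LPS, CpG and Poly(I:C). Mapkapk2, the p38-dependent kinase that stabilises cytokine mRNA, rose by 2.17, 2.12 and 1.61 and Creb1 by 1.75, 1.37 and 1.07. Zfp36l1 and Zfp36l2, which encode mRNA-destabilising proteins, changed by -4.23, -2.75 and -2.82 and by -3.59, -2.92 and -2.63, and Mknk2, a kinase downstream of ERK, by -3.09, -2.17 and -1.69. Each single value in these sentences was called. With the replicate block, 3 of the 11 genes called for several ligands lost their acute CpG call (Map2k4, Creb1, Mapkapk2, adjusted p from 0.0511 to 0.0683). With Poly(I:C) 8 of 11 lost it (adjusted p from 0.0502 to 0.103), and Spred1, Map3k1 and Zfp36l2 kept it.

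Other phosphatases and feedback inhibitors moved in both directions. Among the other dual-specificity phosphatases 2 of 13 tested were called higher and 3 lower with LPS, 0 and 1 with CpG, and 1 and 1 with Poly(I:C). Dusp7, a cytoplasmic phosphatase of ERK like Dusp6, changed by -1.96 with LPS, -1.88 with CpG and -2.15 with Poly(I:C), and was called lower than in naive BMDM in re-stimulated cells of CpG (-1.71), Pam3CSK4 (-1.55) and Poly(I:C) (-1.22), calls that the replicate block ended (adjusted p from 0.0601 to 0.0778). Spred1, an inhibitor of RAS and ERK signalling, rose by 2.04, 1.91 and 2.09, and changed by -1.29 with LPS and -0.87 with CpG between acute and re-stimulated cells, the latter not called with the block (adjusted p = 0.0517). Rps6ka2, which encodes a kinase activated by ERK, was called in no acute comparison and changed by -0.62 with LPS and -1.08 with CpG between acute and re-stimulated cells. Its LPS call (adjusted p = 0.0482) was lost with the block (0.0546). From acute to re-stimulated LPS 14 of 74 pathway genes were called higher and 12 lower, near the 34.2% of all probes called, from CpG 0 and 3 of 73 (3.56% of all), from Poly(I:C) 1 and 1 of 76 (4.93%), and from Pam3CSK4 none of 72 (0%).

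**Figure D5:**
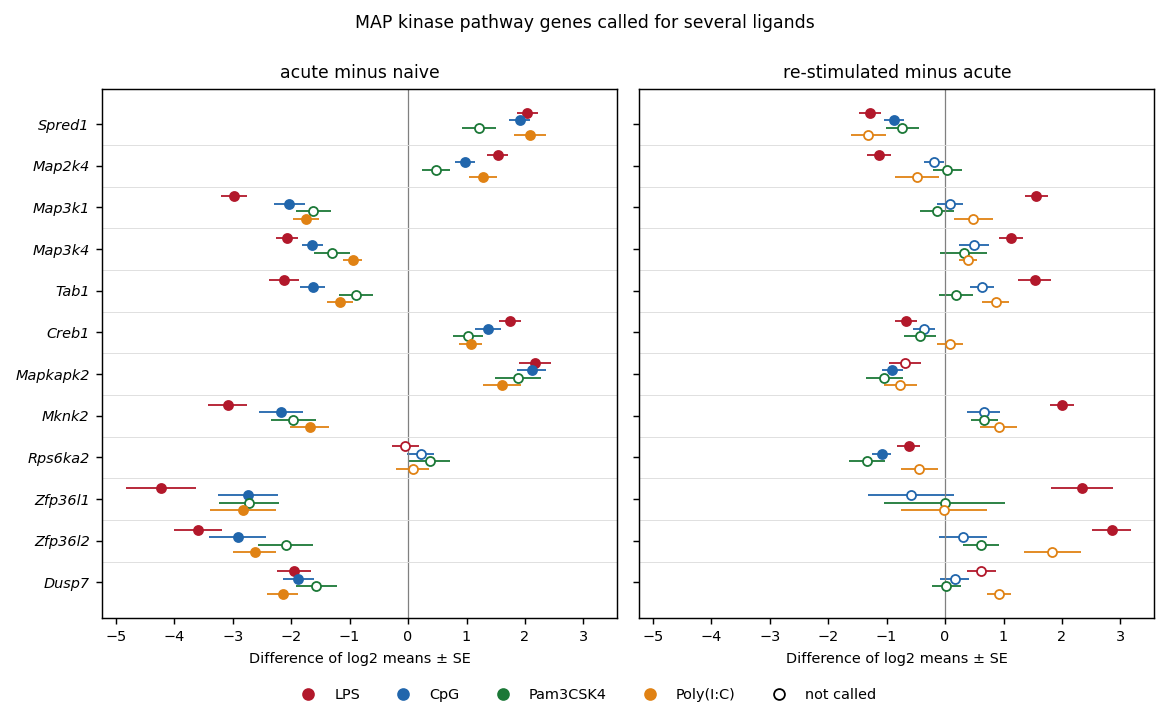
Difference in log2 intensity, with its standard error, for the 12 MAP kinase pathway genes called for several ligands, by ligand, as acute minus naive (left) and re-stimulated minus acute BMDM (right). Filled points were called. On the left Zfp36l1, Zfp36l2, Mknk2 and Map3k1 lie furthest below 0, and Mapkapk2 and Spred1 furthest above it.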

How the data were processed

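RNA from 27 BMDM cultures was hybridised to 1-colour (Cy3) Agilent arrays. The deposited scanner intensity values (Feature Extraction) give spot brightness, local background and flags. The deposited log2 table was made by the authors with RMA background correction and quantile normalisation of 25 arrays. The authors left out 2 arrays for quality, on which 92.4% and 99.9% of probes were well above background. Remaking the table from median signals gave a median absolute difference of 2.80e-10 and a largest one of 0.997. Tests took the probes that 2 or more arrays of 1 of the groups compared had well above background, and were run with limma 3.58.1 in R 4.3.3 on pairs of groups, with Benjamini-Hochberg adjustment over 25427 to 29930 probes. No sample depth applies to arrays, and the number of arrays limits precision. The folds of Dusp5 and Dusp14 are between group means, and no array of the dimmer group had the probe well above background. Fits were tested on simulated data.

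The members and gene lists were chosen with earlier results of these data known. The brightest probe stood for a gene. For Dusp8 this was the EST probe on the strand opposite the RefSeq gene, also in counts, medians and figures. The text names each member, the 3 genes of highest r to it or fewer (those of Dusp5 are not reported here), and pathway genes called for at least 3 ligands acutely or 2 on re-stimulation. Replicate numbers were taken as pairs where same-numbered deviations from the group means correlated above 0.1 in 3 of 3 pairs. This held for the CpG (0.104 to 0.395) and Poly(I:C) (0.170 to 0.437) comparisons and for re-stimulated Pam3CSK4 against naive BMDM (0.170 to 0.237), and not for acute LPS (0.010 to 0.041). Acute Pam3CSK4 had 2 pairs and so could not meet the rule. Its values were 0.487 to 0.524 against naive BMDM and 0.219 to 0.223 against re-stimulated cells. The main calls left the replicate number out in all comparisons, and the block was an alternative. Probe positions in the files are in mm9. Promoters came from RefSeq tables (GRCm38.p6) and were searched in Python 3.11.15. Alternatives were the values remade, all 27 arrays, median scaling, processed signals, 1 fit over 9 groups with or without the slide as a random block, the replicate block, no filter, the mean of a gene's probes, no fold threshold and each array left out. One more, Dusp8 from its brighter RefSeq probe, was chosen after seeing the data.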

Additional observations from a re-analysis of the deposited data

Results flagged for a closer look

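Each of these 4 results is a difference between ligands in the change from acute to re-stimulated BMDM that passed its own test in 1 limma fit over 9 groups. All 4 contain acute LPS, whose arrays lay on slides of their own, so slide and ligand cannot be told apart. None of the 4 was called with all 27 arrays, with median scaling or without the filter. The change of Dusp2 with LPS (-4.61) was below that with CpG (-1.20) by a difference of -3.40 (adjusted p = 0.0384), which ran from -4.05 to -2.61 over the alternatives with adjusted p from 0.00788 to 0.370. It was below that with Pam3CSK4 (-0.87) by a difference of -3.73 (adjusted p = 0.0306), from -4.75 to -2.72 with adjusted p from 0.00585 to 0.151. The change of Dusp4 with LPS (2.28) exceeded that with Pam3CSK4 (-0.80) by 3.08 (adjusted p = 0.0445), from 0.21 to 3.70 with adjusted p from 0.0152 to 0.911, the lowest with all 27 arrays. The change of Dusp1 with LPS (0.54) was below that with Poly(I:C) (2.53) by a difference of -1.99 (adjusted p = 0.0395), from -2.17 to -1.78 with adjusted p from 0.0116 to 0.533.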

How the results depend on the processing

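Dusp2 with acute LPS and CpG, re-stimulated LPS against acute and re-stimulated CpG against naive BMDM, and Dusp16 with acute LPS and CpG and re-stimulated CpG against naive BMDM, kept their calls in all 11 settings and without any single array. Among changes of an MKP recomputed without 1 array, 480 kept their side of the threshold, 41 lost a call, 10 gained one and 1 reversed, Dusp10 between acute and re-stimulated LPS, which ran from -1.55 to 1.69 (without acute LPS replicate 1). The 480 include many changes with no call to lose, so this count does not give the share of calls that held. Counts of called MKPs moved by over 1.5 times as follows. With all 27 arrays they were 1 for re-stimulated against acute LPS and 0 for re-stimulated LPS against naive. Median scaling gave 1 for acute Pam3CSK4, 1 for acute Poly(I:C), 2, 1 and 3 for re-stimulated against acute LPS, Pam3CSK4 and Poly(I:C), and 2 for re-stimulated LPS against naive. It put the median change of all tested probes at 0.11 (acute Pam3CSK4) to 0.78 (re-stimulated CpG against naive, 0.01 in the deposited scale), and with acute CpG 92.3% of calls were higher against 54% in the deposited scale. The fit over 9 groups gave 4 for acute CpG, 3 for acute Pam3CSK4, 1 and 2 for re-stimulated against acute Pam3CSK4 and Poly(I:C), and 2 for re-stimulated LPS against naive, and with the slide as a block the last was 3 and the others the same. Processed signals gave 3 for re-stimulated LPS against naive. With the replicate block the counts were 4 for acute LPS, 2 for re-stimulated against acute Poly(I:C), 3 for re-stimulated LPS against naive and 0 for re-stimulated Pam3CSK4 against naive. Without the filter they were 0, 1 and 1 for re-stimulated LPS, Pam3CSK4 and Poly(I:C) against naive. The mean of probes gave 1 for acute Poly(I:C), 1 for re-stimulated against acute CpG, 0 for re-stimulated LPS and 1 for re-stimulated Pam3CSK4 against naive. The 4 ligand differences became 0 with all 27 arrays, 0 with median scaling, 0 without the filter and 7 with the slide block. Dusp8 from its RefSeq probe was chosen after seeing the data. Without single arrays the counts ran from 2 to 2 for acute LPS and CpG, 0 to 2 for acute Pam3CSK4, 0 to 3 for acute Poly(I:C), 1 to 4, 0 to 0, 0 to 0 and 0 to 3 for re-stimulated against acute LPS, CpG, Pam3CSK4 and Poly(I:C), 0 to 3, 2 to 3, 0 to 2 and 0 to 4 for the same against naive, and 0 to 7 for the ligand differences. The causes were not tested. Signals near background limit Dusp5, Dusp10 and Dusp14.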
